A study of Mus musculus with 6 samples.

Results

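The 10 genes described here belong to the complement, Fc receptor and phagocyte machinery of microglia and macrophages, as read in optic nerve RNA of mice that lack leukemia inhibitory factor (LIF), a cytokine of the interleukin 6 family, and of wild-type mice. They are C1qa, C1qb, C1qc, Fcgr3, Fcer1g, Fcrls, Lyz2, Ctss, Gpnmb and Clec10a. They were chosen by symbol, as genes whose difference between genotypes ran in opposite directions at postnatal days 14 and 35, so the values at those ages describe the choice and are given without a test. All 10 were measured, of 6616 named genes on a tested probe. The deposited table of the series holds 15 probes of these genes, of which 13 have values and all 13 entered the fits, out of 13827 probes tested.

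The knockout animals are LIF-/- mice on the CD1 background and the controls are CD1 wild-type mice, an outbred stock, all labelled male and untreated. RNA of the nerves was pooled, from 10 nerves at day 10, 8 at day 14 and 4 at day 35 (adult), and each pool went onto 1 array, so that the 6 groups hold 1 array each. A difference between genotypes at an age therefore compares 1 pool with 1 pool and has no replicate. The nerve was taken whole, and in such bulk RNA fewer cells of a type and less RNA per cell cannot be told apart.

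C1q is the recognition molecule of the classical complement pathway and is built from A, B and C chains. In the brain it is made mainly by microglia, and it marks synapses, debris and apoptotic cells for uptake. Fc receptors bind the constant part of antibodies, and the activating ones signal through a common gamma chain, encoded by Fcer1g. In the optic nerve, microglia and the macrophages of its vessels and sheath clear cell remains and myelin debris through such receptors and degrade them in lysosomes with enzymes such as lysozyme and cathepsins.

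Between 12222 and 13292 probes were above background per array, and the median raw signal per array was between 51.8 and 61.9. Days 10 and 14 shared slide 1 and day 35 was on slide 2, so genotypes were compared within a slide, while slide and age cannot be told apart for day 35. Of 26 other microglia markers, 19 were measured, and 17 to 19 of them were above background on each array. Their normalized signals summed to 21758 (knockout) against 20926 (wild type) on day 10, to 23368 against 22446 on day 14 and to 22497 against 25275 on day 35. Cst3, cystatin C, which astrocytes also make, held 56.8% to 72.4% of these sums, and without it they were 6114 against 6445, 8428 against 6196 and 8143 against 10921. P2ry12, a purine receptor that marks resident microglia, was above background on only 3 arrays, whereas Cx3cr1, the fractalkine receptor, and Trem2, a lipid-sensing receptor, were above it on all 6. The Y-linked genes Eif2s3y and Kdm5d were both at background on the day 35 knockout array, with raw signals of 39.5 and 37.5, against 72.3 and 141 in the wild type, although all pools are labelled male. On the wild-type array of day 10 Eif2s3y, at 55.4, did not pass background, while Kdm5d, at 97.2, did. Skeletal muscle markers summed to 10072 on the day 35 knockout array and to between 384 and 4649 on the others. Those of the retina summed to 846 on the day 14 knockout array and to between 139 and 352 on the others. Their part in the differences below was not tested.

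The chains of C1q were higher in the knockout than in the wild type at day 14, by 0.66 to 1.02 log2 units, and at day 35 they were level or lower, with differences of -0.74 to -0.05. Values are normalized log2 signals, on which 1 unit is a doubling, and differences are knockout minus wild type. C1qa, the A chain, had a knockout signal of 7.56 and a wild-type signal of 7.99 on day 10, 8.37 and 7.71 on day 14, and 7.62 and 8.36 on day 35. The knockout was thus the lower array at days 10 and 35 and the higher at day 14, with differences of -0.43, 0.66 and -0.74. C1qb, the B chain, had signals of 8.37 and 8.43 on day 10, 8.95 and 8.01 on day 14, and 9.17 and 9.22 on day 35. Its genotypes lay apart only at day 14, by 0.94 or 1.92-fold, while the differences at days 10 and 35 were -0.06 and -0.05. That at day 10 turned to 0.16 without normalization between arrays and to 0.11 with median scaling. C1qc, the C chain, had signals of 8.03 and 8.31 on day 10, 8.71 and 7.69 on day 14, and 8.89 and 9.37 on day 35, which gave differences of -0.27, 1.02 and -0.48. At day 14 the C1qc signal was 2.02-fold higher in the knockout, and 65 of the 13827 probes had a larger positive difference at that age.

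**Figure D1:**
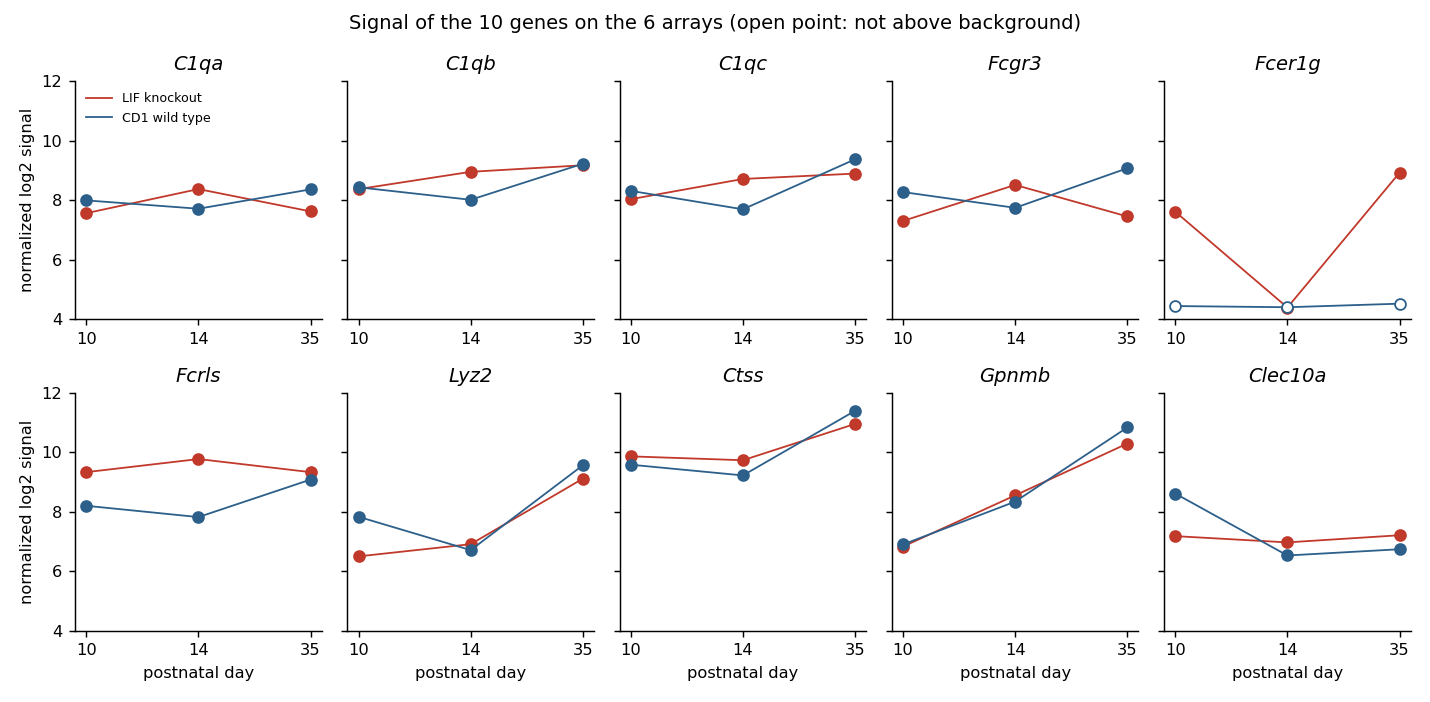
Normalized log2 signal (vertical axis) of each of the 10 genes against postnatal day (horizontal axis, evenly spaced), on 1 array per point, for LIF knockout (red) and CD1 wild type (blue). An open point was not above background. The wild-type C1q chains and Fcgr3 are lowest at day 14 on their lines, and Fcer1g is above background on the knockout arrays of days 10 and 35 only.

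The genes of the C1q chains lie side by side on chromosome 4, in the order C1qb, C1qc, C1qa, with Ephb2 before and Epha8 after them. Sequences of 250 bases before to 50 after the start of transcription were taken from RefSeq (GRCm38.p6), where 8 of the 10 genes had an entry and C1qa and Clec10a were not among them. They are shown for C1qb and C1qc, which are neighbours, and for Ctss and Gpnmb, which changed with age below. Capitals mark the motifs found on either strand, here GAGGAAGT, a site bound by the myeloid factor PU.1, written here from the opposite strand as ACTTCCTC, and TGANTCA, an AP-1 site.
C1qb, chr4:136886151-136886450, minus strand: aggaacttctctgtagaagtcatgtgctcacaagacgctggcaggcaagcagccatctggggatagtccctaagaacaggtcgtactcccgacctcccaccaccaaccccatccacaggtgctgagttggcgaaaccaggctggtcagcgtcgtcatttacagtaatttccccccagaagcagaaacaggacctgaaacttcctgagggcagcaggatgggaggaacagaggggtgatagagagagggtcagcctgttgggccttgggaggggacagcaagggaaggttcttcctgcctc
C1qc, chr4:136892865-136893164, minus strand: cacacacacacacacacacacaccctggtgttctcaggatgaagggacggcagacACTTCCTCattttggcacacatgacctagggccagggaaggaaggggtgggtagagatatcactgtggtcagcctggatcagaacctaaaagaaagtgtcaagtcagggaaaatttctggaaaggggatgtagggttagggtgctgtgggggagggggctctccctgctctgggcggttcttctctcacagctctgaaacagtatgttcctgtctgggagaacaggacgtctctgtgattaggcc
Ctss, chr3:95526536-95526835, plus strand: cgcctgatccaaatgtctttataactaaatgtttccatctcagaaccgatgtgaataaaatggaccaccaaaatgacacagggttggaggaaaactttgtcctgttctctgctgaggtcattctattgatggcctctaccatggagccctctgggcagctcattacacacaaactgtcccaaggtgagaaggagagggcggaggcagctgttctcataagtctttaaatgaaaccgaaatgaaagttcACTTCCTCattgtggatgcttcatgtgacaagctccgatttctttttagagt
Gpnmb, chr6:49036268-49036567, plus strand: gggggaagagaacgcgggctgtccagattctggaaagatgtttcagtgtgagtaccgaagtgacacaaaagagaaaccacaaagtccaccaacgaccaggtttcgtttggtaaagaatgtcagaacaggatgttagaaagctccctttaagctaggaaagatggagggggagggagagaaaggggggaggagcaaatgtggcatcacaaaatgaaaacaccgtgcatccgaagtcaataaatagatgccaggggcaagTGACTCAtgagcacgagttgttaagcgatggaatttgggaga
GAGGAAGT was found in the windows of 2 of the 8 genes, those of C1qc and Ctss, and in 3.2% of all 32851 RefSeq windows of this length. It begins at position -195 in C1qc and at position -2 in Ctss, counted from the start of transcription, in both cases on the strand opposite to the gene. TGANTCA was found in Gpnmb alone of these genes, at position 9, and in 7.81% of all windows. TTGCNNAA, a C/EBP site, was found in Fcgr3 alone and in 10.8% of all windows, while CACGTG, an E-box bound by MITF and TFE factors, and a composite ETS and IRF site were found in none of the 8 genes (7.15% and 2.72% of all windows). The motifs do not overlap each other in these windows.

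The Fc receptor genes did not share 1 pattern. Fcgr3, the low-affinity activating receptor for immunoglobulin G, had a knockout signal of 7.30 and a wild-type signal of 8.27 on day 10, 8.51 and 7.74 on day 14, and 7.45 and 9.07 on day 35. The knockout was the lower array at days 10 and 35 and the higher at day 14, as for C1qa, with differences of -0.96, 0.77 and -1.62. At day 35 the wild-type signal was 3.08-fold that of the knockout, and 36 of 13827 probes had a larger negative difference. Fcrls, an Fc receptor-like molecule of mouse microglia, had signals of 9.33 and 8.20 on day 10, 9.77 and 7.82 on day 14, and 9.33 and 9.08 on day 35. It was higher in the knockout at all 3 ages, by 1.13, 1.95 and 0.25, so the opposite direction that the choice of genes names was not seen in it. A dimmer Fcrls probe was above background only on the knockout arrays of days 10 and 35, where it exceeded the wild type at least 1.67-fold and at least 2.13-fold. Such bounds are set against the dimmest signal above background on the wild-type array. It lay at background in both genotypes on day 14, where the difference of the brighter probe was 1.95.

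Fcer1g, the common gamma chain, stood apart from the other genes. Its raw knockout signal was 261.5 beside a wild-type signal of 44.4 on day 10, 35.9 beside 42.5 on day 14, and 473.8 beside 44.6 on day 35. It was above background on the knockout arrays of days 10 and 35 and on no other, where the knockout exceeded the wild type at least 7.6-fold (day 10) and at least 16.6-fold (day 35) on the normalized scale. These sizes hold for that scale alone, since its log2 difference of 3.17 at day 10 and 4.39 at day 35 was as low as 2.03 and 3.03 under other background settings or in the authors' deposited table. The day 14 arrays of both genotypes lay at background, so Fcer1g does not have the opposite differences named by the choice either. It passed the filter on low signals through the knockout arrays of days 10 and 35 alone. Of the 13827 probes, 76 (0.55%) were above background on these 2 arrays and no other, among them the dimmer Fcrls probe. Tyrobp, the adaptor DAP12, which signals in the same way as the gamma chain, was above background on all 6 arrays, at 8.12 and 8.24, 8.60 and 7.59, and 8.15 and 8.54 at the 3 ages.

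Of the phagocyte genes, Lyz2, Ctss and Gpnmb had differences of 0.20 to 0.51 at day 14 and of -0.54 to -0.44 at day 35, of which only the 0.51 of Ctss lay outside the 5th to 95th percentile of all probes. Lyz2, the lysozyme of myeloid cells, had a knockout signal of 6.50 and a wild-type signal of 7.83 on day 10, 6.91 and 6.71 on day 14, and 9.11 and 9.56 on day 35. Its widest gap was at day 10, where the wild-type signal was 2.51-fold higher, and its differences at days 14 and 35 were 0.20 and -0.45. Ctss, the lysosomal protease cathepsin S, had signals of 9.86 and 9.58 on day 10, 9.73 and 9.22 on day 14, and 10.95 and 11.39 on day 35, with differences of 0.28, 0.51 and -0.44. The knockout was thus the higher array up to day 14 and the lower one at day 35. Gpnmb, a glycoprotein of phagocytes with a heavy lysosomal load, had signals of 6.83 and 6.90 on day 10, 8.55 and 8.34 on day 14, and 10.29 and 10.83 on day 35. Its genotypes lay close at every age beside its change with age, with differences of -0.07, 0.22 and -0.54. Without normalization between arrays the day 14 difference of Gpnmb was 0 and that of Lyz2 was -0.02, and the day 10 difference of Gpnmb was 0.12, so these small differences have no settled direction.

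A dimmer Gpnmb probe, above background on 4 arrays, had differences of 0.26 at day 14 and -0.75 at day 35, and another, above background at day 35 only, had 0.13 there. A further probe each of Lyz2 and Gpnmb has no values in the deposited table. Array rows that carry the gene numbers of Lyz2 and Gpnmb in their identifiers, and that no table probe was linked to, were at background on all 6 arrays, at raw signals of 43.9 to 54.4 and 37.2 to 46.5. Clec10a, a galactose-binding lectin of macrophages and dendritic cells, had signals of 7.18 and 8.61 on day 10, 6.97 and 6.53 on day 14, and 7.21 and 6.74 on day 35. The day 10 wild-type array was the high one of the 6, and the differences were -1.43, 0.44 and 0.47. Clec10a was higher in LIF knockout nerve at both later ages, so it lacks opposite directions as well.

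Across the 10 genes the median difference on days 10, 14 and 35 was -0.17, 0.58 and -0.45, against -0.01, 0 and -0.02 over all tested probes. Opposite directions, higher in the knockout at day 14 and lower at day 35, were present in 7 of the 10, from which nothing is read because they chose the genes, while 29% of all probes have them. C1qb lies just inside the choice, with -0.05 at day 35, and Fcrls with 0.25 at day 35 lies just outside it, while Clec10a and Fcer1g lie farther out. C1qa and Fcgr3 had opposite differences of over 0.5 log2 units, as 0.998% of all probes did, and for the same reason nothing is read from this. The choice does not name day 10, but the genes were chosen with its values known. At that age 7 of 10 were lower in the knockout, against 50.9% of all probes. The 7 include C1qb and Gpnmb, at -0.06 and -0.07. Both turned positive without normalization between arrays and with median scaling, so the count is not settled. Of the 10 genes, those beyond 1 log2 unit at day 10 were Lyz2 and Clec10a, both lower, and Fcrls and Fcer1g, both higher. Over all probes 3.33% lay beyond 1 unit in either direction. Without normalization between arrays the median of all probes was 0.13 at day 10 and -0.21 at day 14, and that of the 10 genes was 0.03 and 0.34.

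**Figure D2:**
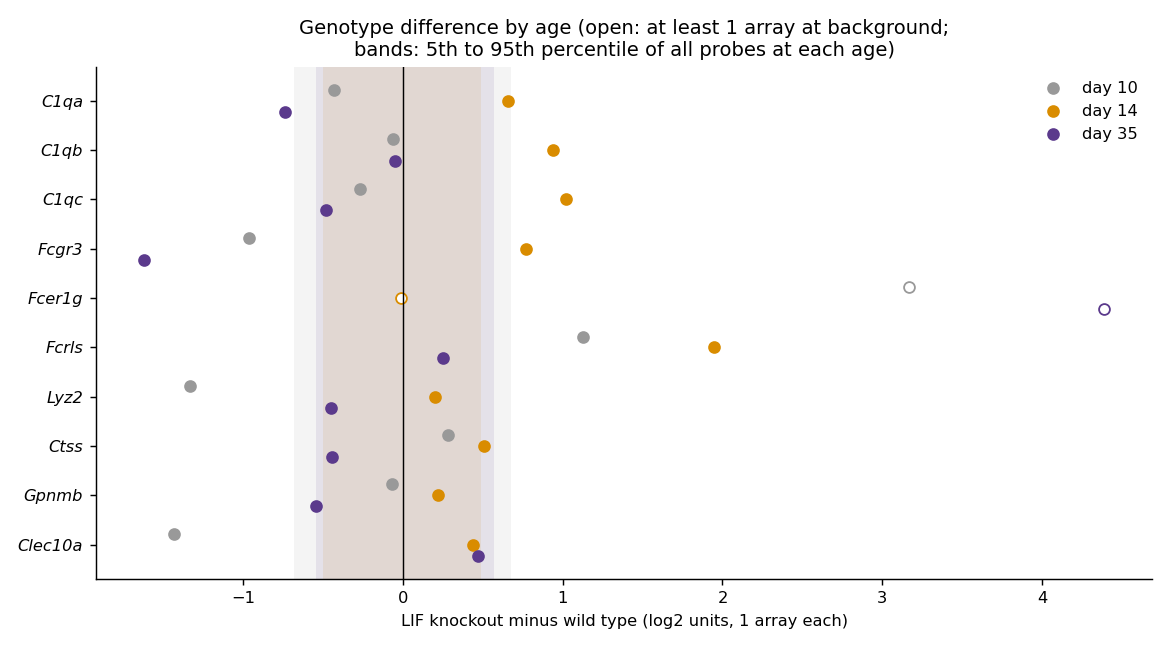
Difference between genotypes (horizontal axis, knockout minus wild type in log2 units, 1 array each) of each gene (vertical axis) at days 10 (grey), 14 (orange) and 35 (violet). The bands run from the 5th to the 95th percentile of all tested probes, -0.50 to 0.49 at day 14 and -0.54 to 0.57 at day 35. Open points rest on at least 1 array at background, and on day 14 the C1q chains, Fcgr3, Fcrls and, narrowly, Ctss lie right of the band.

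The opposite directions can be followed within each genotype, although the lines share the arrays behind the differences above and add no evidence to them. In the wild type 9 of 10 genes were lower at day 14 than at day 10, with Gpnmb as the exception and Fcer1g at background on both arrays, against 50.5% of all probes. All 10 were higher at day 35 than at day 14 in the wild type, against 48.2% of all probes, with Fcer1g at background on both arrays. In the knockout 7 of 10 were higher at day 14 than at day 10, against 50.5% of all probes. From day 14 to day 35, again 7 of 10 were higher in the knockout, against 46.3% of all probes. Day 35 minus day 14 in the knockout was -1.06 for Fcgr3, -0.75 for C1qa, -0.44 for Fcrls, 0.22 for C1qb and 0.18 for C1qc. For the same genes it was 1.33, 0.65, 1.26, 1.21 and 1.68 in the wild type.

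The change with age was tested over both genotypes, in a limma model with age and genotype and adjustment over all 13827 probes, with the 2 genotypes of an age as its replicates. The choice of genes did not use the mean of an age, but the error of this fit is how far the genotype difference varies between ages, which the choice did use, so the standard errors and p-values of these genes are not independent of it. Gpnmb, Lyz2 and Ctss rose to day 35, and the C1q chains, Fc receptors and Clec10a did not pass the threshold. Between days 10 and 35, 3 of the 10 genes passed, all higher, against 10.6% of all probes called higher. Gpnmb had mean signals of 6.86 at day 10, 8.44 at day 14 and 10.56 at day 35. The rise from day 10 to day 35 was 3.69 ± 0.22 log2 units (SE, 2 arrays per age), or 12.9-fold (limma adjusted p = 0.00877), and from day 14 to day 35 it was 2.11 ± 0.22 (limma adjusted p = 0.0175). Day 35 minus day 10 was 3.46 for knockout and 3.92 for wild-type arrays. A dimmer probe, at background on both day 10 arrays, rose by 1.95 ± 0.26 from day 14 to day 35 (limma adjusted p = 0.0206), and another was above background on the day 35 arrays only.

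Lyz2 had mean signals of 7.17, 6.81 and 9.34 at the 3 ages. It rose by 2.17 ± 0.36 from day 10 to day 35 (limma adjusted p = 0.0187) and by 2.53 ± 0.36 from day 14 (limma adjusted p = 0.0215), or 5.77-fold. Neutrophils also carry lysozyme, and their genes S100a8 and S100a9 had day 35 signals of 7.92 and 7.41 for the knockout and of 6.87 and 6.32 for the wild type. Their day 10 signals were 7.02 and 6.93 for the knockout and 6.68 and 6.50 for the wild type. Lyz1, a close paralogue that lies beside Lyz2 on chromosome 10, was above background on the day 35 arrays only, and how far the Lyz2 probe tells them apart was not tested. Ctss had means of 9.72, 9.48 and 11.17. It rose by 1.44 ± 0.26 from day 10 (limma adjusted p = 0.0218) and by 1.69 ± 0.26 from day 14 (limma adjusted p = 0.023), or 3.23-fold. From day 14 to day 35 these were again 3 of 10 genes, against 7.74% of all probes called higher.

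For C1qb and C1qc the fitted difference between days 10 and 35 was 0.80 ± 0.29 and 0.96 ± 0.37 (limma adjusted p = 0.101 and 0.121), and for C1qa it was 0.21 ± 0.34. It was 0.48 ± 0.54 for Fcgr3 and 0.44 ± 0.39 for Fcrls, and Fcer1g, at background on at least 1 array of each age, did not pass (limma adjusted p = 0.629). Clec10a had a difference of -0.91 ± 0.48 (limma adjusted p = 0.216), of which the wild type gave -1.86 and the knockout 0.03. Between days 10 and 14 none of the 10 genes and none of the 13827 probes passed in limma, with 1719 probes at an unadjusted p below 0.05. Gpnmb had the lowest adjusted p of the 10 there, with a difference of 1.58 ± 0.22 (limma adjusted p = 0.237), to which the knockout gave 1.73 and the wild type 1.43.

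The calls rest on few arrays. Without the day 10 knockout array, or without the day 10 wild-type array, none of the 10 genes and none of the 13827 probes passed between days 10 and 35. Without either day 14 array C1qb and C1qc passed as well (limma adjusted p = 0.0411 and 0.0321 in each case), which made 5 of the 10 genes and 2420 of all probes. Between days 14 and 35 none of the 10 passed without any 1 of the arrays of days 10 and 14, where at most 12 of all probes did, so these losses are not particular to the 10 genes. In each such fit an age is left with 1 pool, assumed to vary like the others, and 1 residual degree of freedom. Without the day 35 knockout array, on which the Y-linked genes were at background, Gpnmb and Ctss kept their calls from day 10 to day 35, while Lyz2 had 2.11 (limma adjusted p = 0.0647) and 503 of all probes passed. Without the day 35 wild-type array Ctss had 1.02 (limma adjusted p = 0.054).

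**Figure D3:**
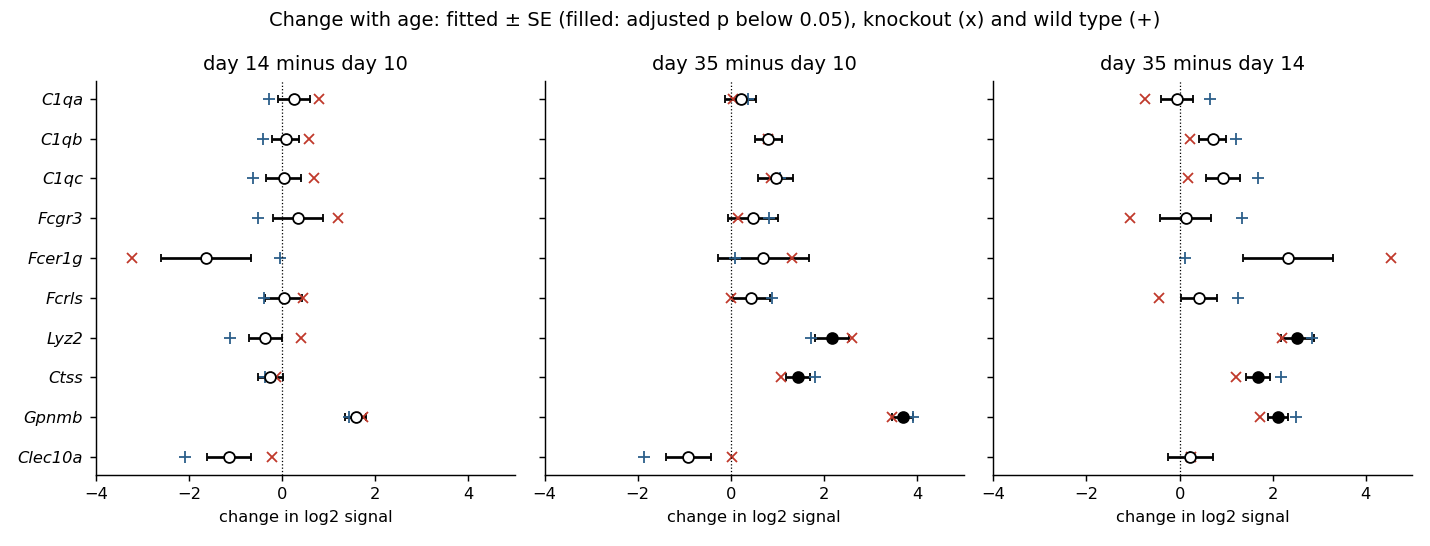
Change in normalized log2 signal (horizontal axis) of each gene (vertical axis) between ages, fitted over both genotypes with its standard error (circles, filled where the limma adjusted p was below 0.05), beside the change in the knockout (red crosses) and in the wild type (blue plus signs). Gpnmb, Lyz2 and Ctss are filled in both comparisons with day 35, and from day 14 to day 35 the knockout crosses of C1qa, Fcgr3 and Fcrls lie below 0 and their wild-type plus signs above it.

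Other genes of the same functions were described from lists that hold none of the 10. Among 13 other measured complement genes the median differences of the 3 ages were -0.45, 0.40 and -0.28. At day 14, 10 of 13 were higher in the knockout and at day 35, 8 of 13 were lower, against 50.5% and 52.6% of all probes. Clu, the regulator clusterin, was at 0.74 at day 14 and -0.26 at day 35, and Cfb, factor B of the alternative pathway, at 0.50 and -1.27. Cd93, a surface receptor once described as a C1q receptor, was at -0.48 and 0.13. Cfi, factor I, which cleaves C3b, was above background only in the wild type at days 10 and 35, at 6.38 and 6.19, and in the knockout at day 14, at 5.91. With age C2, a protease of the classical pathway, rose by 1.40 ± 0.28 from day 10 to day 35, as did Cd55, Cd59a and Cr1l, inhibitors that shield host cells, by 1.27, 2.0 and 0.64, while Cd93 fell by 1.32 (limma adjusted p of 0.0132 to 0.0458). These were 4 of 13 higher and 1 lower, against 10.6% and 10.2% of all probes.

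Among 10 other measured genes of Fc receptors and their signalling the medians were -0.20, 0.37 and -0.36. At day 14, 8 of 10 were higher in the knockout, against 50.5% of all probes. They were led by Tyrobp at 1.0, Fcgr2b, the inhibitory receptor, at 0.93 and Ptpn6, the phosphatase SHP-1, at 0.71. At day 35, 8 of 10 were lower, against 52.6% of all probes. Btk, a kinase of antibody receptor signalling, was at -0.76 there, while Fcgr2b stood at 0.72. Fcgr2b and Fcgr4, a further activating receptor, lie beside Fcgr3 on chromosome 1. Fcgr4 was above background on 3 arrays, with -0.79 at day 35. From day 10 to day 35 Inpp5d, the inositol phosphatase SHIP1, rose by 1.07 and Plcg2, a phospholipase downstream of these receptors, fell by 1.21 (limma adjusted p = 0.0346 and 0.022). These were 1 of 10 higher and 1 lower, near the 10.6% and 10.2% of all probes.

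The 19 other microglia markers had medians of 0.07, 0.33 and -0.61. At day 35, 17 of 19 were lower in the knockout, against 52.6% of all probes. At day 14, 14 of 19 were higher, against 50.5% of all probes. Aif1, the calcium-binding protein IBA1, was at 0.95 and -0.81 at days 14 and 35, Cx3cr1 at 0.87 and -0.79, and Trem2 at 0.74 and -0.51. Irf8, a transcription factor that microglia need, was at 0.5 and -1.29. Of the 19, 5 were level or lower at day 14. Gpr34, a lysophospholipid receptor, was the lowest of them, at -0.30 at day 14 and -0.88 at day 35. P2ry12, at background on both day 14 arrays, was at -0.19 at day 14 and Cst3 at -0.12, and the rest lay between -0.04 and 0. Opposite differences of over 0.5 log2 units at both ages were present in 7 of 19, against 0.998% of all probes. Over the alternative settings the median of the list lay between 0.09 and 0.41 at day 14 and between -0.69 and -0.41 at day 35, and those of the complement and Fc receptor lists kept their signs at both ages. Some of these markers were chosen as microglia genes with the earlier result for this cell type known, so the counts are not independent of it. From day 10 to day 35, 2 of the 19 passed, both higher, against 10.6% of all probes. They were Tgfbr1, a receptor of transforming growth factor beta, at 1.06 and P2ry12 (limma adjusted p = 0.0157 and 0.0404). The size for P2ry12 is not given because its wild-type day 10 array was at background. From day 14 to day 35, 3 of the 19 passed, all higher, against 7.74% of all probes. These were Tgfbr1, P2ry12 and Gpr34, with a rise of 1.22 for Gpr34 (limma adjusted p of 0.0245 to 0.0376).

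Macrophages of vessels and meninges are known to carry many of these transcripts too. Their 10 measured markers had medians of -0.25, 0.54 and -0.49. At day 14, 8 of 10 were higher in the knockout and at day 35, 8 of 10 were lower, against 50.5% and 52.6% of all probes. Adgre1, the surface protein F4/80, was at 0.83 and -0.73, and Stab1, a scavenger receptor, at 0.71 and -0.57. Ms4a6c was higher at both ages, at 0.66 and 0.36, and Timd4, a receptor for phosphatidylserine, was at background in the knockout at both ages and above it in the wild type. From day 10 to day 35 Ms4a6c rose by 1.22 and Stab1 fell by 1.35, and from day 14 Ms4a6c and Lyve1, a hyaluronan receptor, rose by 0.83 and 0.98 (limma adjusted p of 0.0138 to 0.0359). Those from day 10 were 1 of 10 higher and 1 lower, near the 10.6% and 10.2% of all probes. Those from day 14 were 2 of 10 higher, against 7.74% of all probes. Summed over the list, the knockout had 2034 and the wild type 2132 on day 10, followed by 1761 and 1246 on day 14 and by 1737 and 2281 on day 35. Microglia and border macrophage markers thus lay on the same sides at days 14 and 35, and their parts in the differences of the 10 genes cannot be told apart. Class II and dendritic cell genes, which Clec10a shares a cell type with, had medians of -1.23, 0.65 and 0.11 over 6 measured genes. Cd74, the invariant chain, was at -1.88 at day 10, where Clec10a was at -1.43. At days 14 and 35 Cd74 was at 0.76 and 0.22. Not all of the list went with Cd74. At day 10, 5 of the 6 were lower in the knockout, against 50.9% of all probes, and the class II chain H2-Aa was higher, at 2.05. At day 14, 5 of the 6 were higher, against 50.5% of all probes, and the class II chain H2-Ab1 was lower, at -0.82.

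The list of neutrophil and mast cell markers had medians of -0.01, -0.59 and 0.42 over 10 measured genes, on the other side at days 14 and 35. Its mast cell genes did not share these sides. Kit was at 0.27 and -0.11 at days 14 and 35, and Tpsb2, at background on the day 35 knockout array, at 0.20 and -0.21. Cma1 and Cpa3 were at background on all arrays of both ages. S100a8 was at -1.26 at day 14 and 1.05 at day 35. Of 15 lymphocyte markers only Cd3e was measured, between 4.73 and 5.54, and it was at background on 2 arrays. The 29 other lysosomal and phagocyte genes had medians of -0.08, 0.15 and -0.06, and the day 14 median was -0.1 without normalization between arrays. Among them Ctsd, cathepsin D, was at 0.90 and -0.13, Ctsz at 0.65 and -0.45, and Lgals3, galectin-3, at 0.11 and -1.33. Mertk, a receptor for apoptotic cells, was at -0.61 and 0.63. From day 10 to day 35, 5 of 29 passed, all higher, against 10.6% of all probes, namely Abcg1 at 2.19, Itgav at 1.76, Mertk at 1.3, Igf1 at 1.05 and Lgmn at 0.74 (limma adjusted p of 0.00913 to 0.0378). Astrocyte markers had medians of 0.07, -0.04 and -0.05 at the 3 ages and oligodendrocyte markers of -0.51, 0 and -0.03. At day 10, 6 of 8 oligodendrocyte genes were lower in the knockout, against 50.9% of all probes. The 6 measured retina markers were all higher in the knockout at day 14 and lower at day 35 (medians 1.73 and -0.30), the same directions as most of the 10 genes, but none of the 6 was above background on the day 35 knockout array and 3 were on the day 14 wild-type array.

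**Figure D4:**
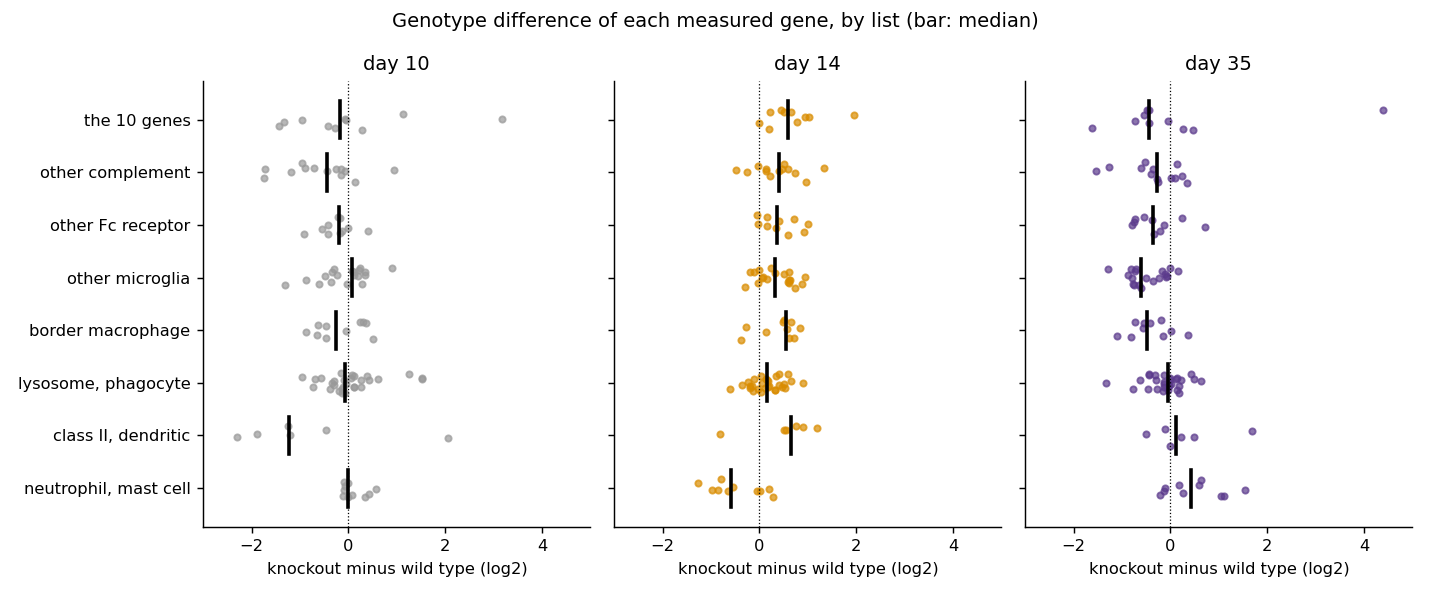
Difference between genotypes (horizontal axis, knockout minus wild type in log2 units) of every measured gene of 8 lists (vertical axis) at days 10, 14 and 35, with a bar at each median. The medians of the complement, Fc receptor, microglia and border macrophage lists lie between 0.33 and 0.54 at day 14 and between -0.61 and -0.28 at day 35, and those of the neutrophil and mast cell list at -0.59 and 0.42.

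The genes most like the C1q chains over the 6 arrays were sought among 5907 named genes above background on all arrays. Each profile was centred on its own mean, and likeness was the root mean square difference from the mean profile of C1qa, C1qb and C1qc in log2 units. The nearest were Bcl2a1a, an anti-apoptotic protein of blood cells, at 0.11, then Ptprf, a receptor tyrosine phosphatase, and Hsph1, a heat shock protein, both at 0.12. Ptprf was dim, with signals of 4.85 to 6.01, where the dimmest signal above background was 4.68 to 4.87 per array. Inpp1, an inositol phosphatase, Akap10, an anchor of protein kinase A, and Fyb, an adaptor of blood cells, lay at 0.13. Nckap1l, a regulator of actin in blood cells, Coro1a, the actin-binding coronin of leukocytes, and Egln1, an oxygen-sensing prolyl hydroxylase, lay at 0.14, and P4ha1, a subunit of collagen prolyl hydroxylase, at 0.15. The median over the 5907 genes was 0.49. Bcl2a1a stood at 7.07 and 7.12, 7.50 and 6.62, and 7.28 and 7.83 at the 3 ages, with differences of -0.05, 0.88 and -0.55 beside -0.25, 0.87 and -0.43 for the mean of the chains. Bcl2a1a has near-identical copies in the mouse genome, which its probe may not tell apart. Coro1a is also in the microglia list. The chains themselves lay at 0.15 for C1qb, 0.18 for C1qc and 0.28 for C1qa, whose day 35 values were low beside those of the other chains. The mean profile was made from these chains, so their distances are smaller by construction and cannot be set against those of other genes. Fcgr3 lay at 0.43, while Ctss, Fcrls, Clec10a, Lyz2, Gpnmb and Fcer1g lay between 0.52 and 1.92, farther than the median gene.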

How the data were processed

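Expression was measured on 6 MouseRef-8 arrays, 1 per genotype and age. Per the file headers, the deposited array files hold mean bead intensity per probe on a linear scale, as BeadStudio 1.5.0.34 wrote it out before any normalization. They also hold a detection score per probe, a fraction from 0 to 1 that the authors exported with it, and 1 minus this score was taken as the detection p. The series table the authors deposited holds the same intensities times 1 factor per array, as its values show, with 15646 of 24613 probes blank. Its probes were linked to array rows by their values (8935 linked, 8047 with 1 symbol), and gene numbers inside row identifiers were equal to the linked gene for 97.1% of 3182 probes.

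Intensities were corrected with normexp (limma 3.58.1, R 4.3.3, offset 16), quantile normalized and taken to log2. Probes with detection p below 0.05 on at least 2 arrays were tested (13827), and the brightest probe stands for a gene. Age was tested with lmFit and eBayes (two-sided, Benjamini-Hochberg, threshold 0.05, 2 residual degrees of freedom), with the genotypes of an age as its replicates. In simulated data the fit recovered 18% of changes of 1 log2 unit between days 10 and 35 and 86% of changes of 2. A gene that did not pass may therefore still have changed with age. The simulated probes, unlike the 10 genes, were not chosen by their genotype differences, so the recovered shares need not hold for the 10. The age p-values are set against how far the genotype difference of single pools varies between ages. The number of arrays limits the precision. A fold against an array at background is a lower bound, set with the dimmest signal above background there. By the rule for named genes, these are the 10, at most the 3 highest and 3 lowest genes of each of 13 lists at days 14 and 35, not all of which are given, and the 10 nearest to C1q. List genes past the age threshold are named for the complement, Fc receptor, microglia, macrophage and lysosomal lists. The members and lists were chosen with earlier results of these data known. Alternatives were other normalizations, background corrections, offsets and filters, the authors' table, probe averages and leaving out each array. The sources used here name no genome build for the array.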

Additional observations from a re-analysis of the deposited data

Results flagged for a closer look

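C1qa and Fcgr3 are listed because their genotype differences, knockout minus wild type in log2 units, took opposite signs at different ages with over 0.5 units on each side. C1qa differed by 0.66 at day 14 and by -0.74 at day 35. Fcgr3 differed by -0.96 at day 10, by 0.77 at day 14 and by -1.62 at day 35. Each value compares 1 pool with 1 pool, the genes were chosen for opposite signs at days 14 and 35, and the difference between ages was not tested.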

How the results depend on the processing

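Over the planned settings and 1 chosen after seeing the data (without Fcer1g), the median genotype difference of the 10 genes ranged from -0.27 to 0.03 at day 10, from 0.34 to 0.66 at day 14 and from -0.51 to -0.41 at day 35. The members' own differences moved by more than the SD of that age's differences over all probes only for Fcer1g, whose size depends on background correction, offset and table (as low as 2.03 at day 10 and 3.03 at day 35), and for Fcrls averaged over its probes (1.02 and 0.81 at days 14 and 35). Signs turned for C1qb and Gpnmb at day 10 and Lyz2 and Gpnmb at day 14, as given above, and for Fcer1g at day 14 (0.06 with median scaling), where it was at background in both genotypes. The count of probes called from day 10 to day 35, 2875, was 1906 with all probes tested, and that from day 14 to day 35, 2055, was 1064 without normalization between arrays, 1231 in the authors' deposited table and 1079 with all probes tested, a setting under which Lyz2 and Ctss lost their calls (limma adjusted p of 0.0559 to 0.0592). Higher and lower calls from day 10 to day 35 were 1468 and 1407, 755 and 1903 without normalization, and 532 and 2148 in the authors' table, and those from day 14 to day 35 were 1070 and 985, 1023 and 647 with median scaling, and 511 and 720 in that table. Leaving out each array in turn gave 0 to 7 calls between days 10 and 14, 0 to 2420 between days 10 and 35 and 0 to 946 between days 14 and 35, with 1 residual degree of freedom left. Of the 10 genes nearest to C1q, 6 to 10 were shared over settings. No paired analysis was possible because each group holds 1 array, with no replicate numbers to pair, and the age fit keeps genotype as a term. Dim signals limit Fcer1g, the dimmer Fcrls probe and P2ry12, whose values rest on arrays at background.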

Other observations

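Of the 76 probes above background only on the knockout arrays of days 10 and 35, 2 exceeded the wild type by over 2 log2 units at both ages, that of Fcer1g and 1 without a gene symbol. Red blood cell genes had medians of 0.66, -0.54 and -1.80 at days 10, 14 and 35 over 5 measured genes. H2-Aa, a class II chain, was higher in the knockout at all 3 ages, by 2.05, 0.90 and 1.68, while H2-Ab1, its partner chain, was at -1.21, -0.82 and 0.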
